A study of Mus musculus with 30 samples.

Results

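CRX is the homeodomain transcription factor that photoreceptors use to switch on the genes of the outer segment, of phototransduction and of the photoreceptor synapse. It binds short homeodomain motifs with the core TAATCC, works together with the rod factors NRL and NR2E3, and shares its binding preference with OTX2, which acts upstream of it. In the mouse, rods and cones are already born by postnatal day 10 (P10) and are building outer segments and synapses, and the eyes have not opened. The E168d2 allele is a frameshift knocked into the mouse *Crx* gene that truncates the C-terminal activation region and leaves the DNA-binding homeodomain in place. Retinas of *E168d2/d2* homozygotes therefore hold no full-length CRX.

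The comparison described here was of whole retinas of *E168d2/d2* mice and of wild-type (WT) mice at P10, with 3 RNA-seq libraries in each group, 6 of the 30 libraries in the series. All mice were of the C57BL6/J strain, and each library was labelled as a pool of 4 retinas from both sexes. The *E168d2/+* heterozygotes and the *R90W/W* homozygotes of the same age, 3 libraries each, were used only to ask how the homozygote differed from other *Crx* mutants, where R90W is a substitution within the homeodomain. No conditional allele, transgene or treatment was involved. The labels do not say that the WT mice were littermates of the mutants.

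The values were CPM, read counts scaled to the reads mapped to genes of each library, and the depth, estimated from the step between low values, was 13.9 to 17.1 M reads on genes in WT and 17.4 to 22 M in *E168d2/d2*, so that 3 reads, the limit used here for a gene not detected, corresponded to 0.175 to 0.216 CPM in WT and to 0.137 to 0.172 CPM in the mutant, for counting error only. Markers of sex went against the label of a mixed pool in 2 mutant libraries. *Xist*, transcribed from the inactive X chromosome, stood at 1671 to 1810 CPM in WT and at 1799, 3737 and 2.96 CPM in mutant libraries A, B and C. The Y-linked gene *Ddx3y* stood at 31.1 to 37.8 CPM in WT and at 43.9, 0 and 78.7 CPM in mutant libraries A, B and C. Library B therefore read as female and library C as male. Library A held a trace of lens RNA, with *Cryaa*, a lens crystallin, at 57.6 CPM against at most 1.61 CPM in the other 5 libraries. Counts are given below with all 3 mutant libraries, and for some lists also without library B or without library C. Leaving out both leaves library A alone, with no spread between mutant libraries. Counts from that setting are used only where the dependence on the processing is described, and no list is read from it.

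*Crx* mRNA itself was measured at 1539, 1601 and 1481 CPM in the WT libraries and at 2470, 2324 and 2301 CPM in the *E168d2/d2* libraries. The groups did not overlap, and the log2 ratio of mutant over WT was 0.62 ± 0.054 (SE, n = 3 and 3, limma adjusted p = 2.37e-06). The mutant transcript was thus present above the WT level, but a count per gene does not see the frameshift and cannot check the genotype.

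Of 12171 genes with at least 5 CPM in all libraries of either group, 394 were lower (3.24%) and 277 higher (2.28%) in *E168d2/d2* at an adjusted p of at most 0.05 and a change of at least 2-fold. These are the genes called lower or higher in what follows. Without mutant library B the counts were 394 and 311, and without library C 402 and 289. With no limit on the fold change, 2051 genes were lower (16.9%) and 4357 higher (35.8%), and this split turned with the scaling, to 2865 lower and 2562 higher when each library was scaled to the median log ratio. The libraries of the groups did not overlap for 7411 genes (60.9%). The median log2 ratio of all genes tested was 0.0974, and smaller changes than 2-fold are read here against that value. Retinas were measured whole, so that fewer cells of a type and less RNA per cell cannot be told apart.

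**Figure D1:**
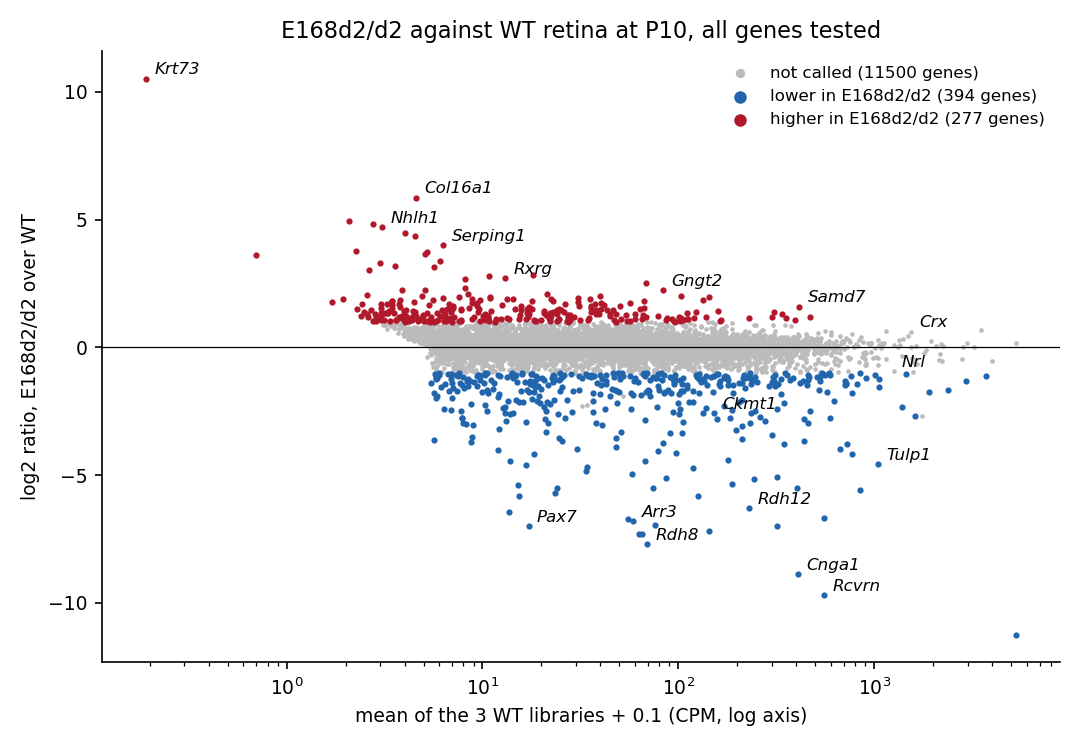
Each point is 1 of the 12171 genes tested, with its mean level in the 3 WT libraries (CPM + 0.1, log axis) against the log2 ratio of *E168d2/d2* over WT. The 394 genes called lower reach far below the 277 called higher, apart from *Krt73* at 10.52 and *Col16a1* at 5.86.

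The largest falls were in genes of the photoreceptor outer segment and in transcripts of little known function. *Rcvrn*, which encodes recoverin, the calcium sensor that restrains rhodopsin kinase, was at 550, 547 and 565 CPM in WT and at 0.707, 0.574 and 0.455 CPM in the mutant, a log2 ratio of -9.69 ± 0.12 (SE, adjusted p = 1.72e-13). *Rcvrn* lies within *Glp2r* on the other strand, and *Glp2r* fell from 82.6, 93.1 and 83.7 CPM to 2.39, 2.18 and 2.55 CPM. Since the sources used here do not state whether reads were counted by strand, reads of this pair may be shared. *Cnga1*, the pore subunit of the rod cyclic nucleotide-gated channel, was at 417, 422 and 390 CPM in WT and at 1.03, 0.861 and 0.501 CPM in the mutant (log2 ratio -8.88 ± 0.18). *Pax7*, a paired homeodomain factor, was at 16.5, 17.3 and 17.6 CPM in WT and at 0.0544, 0.0574 and 0 CPM in the mutant, at or under 3 reads in every mutant library and so at least 99.4-fold lower when set against the highest 3-read limit of these libraries. *Cngb1* (-7.00) and its neighbour *BC016201* (-6.95) fell together, and *AI847159* (-7.32), *Gm626* (-7.19) and *Susd3* (-6.70) were likewise under 1.1 CPM in all mutant libraries and over 50 CPM in all WT libraries.

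The largest rise was in a keratin. *Krt73*, a type II keratin known from the hair follicle sheath, was at 0, 0.216 and 0.0584 CPM in WT, at or under 3 reads in each library, and at 290, 238 and 228 CPM in the mutant, at least 1168-fold higher than the 3-read limit. *Col16a1*, which encodes a fibril-associated collagen, was at 5.08, 4.17 and 4.2 CPM in WT and at 267, 258 and 268 CPM in the mutant (log2 ratio 5.86 ± 0.078, adjusted p = 2.64e-13). Both genes were thus low in WT retina and among the plainly expressed genes of the mutant. *Nhlh1*, a neuronal basic helix-loop-helix factor, rose from 2.63, 3.38 and 2.86 CPM to 86.5, 75.9 and 76.4 CPM, and *Myocd*, the coactivator of serum response factor known from smooth and cardiac muscle, from 4.07, 4.39 and 4.73 CPM to 127, 72.4 and 81.5 CPM. *Mrc2*, an endocytic collagen receptor, rose from 5.02, 3.52 and 3.21 CPM to 143, 61.2 and 76.3 CPM. *Serping1*, the inhibitor of the C1 complement proteases, rose from 6.83, 6.33 and 5.43 CPM to 101, 95.6 and 103 CPM. For *Mrc2* and *Myocd* library A stood above B and C, whereas *Serping1* and *Col16a1* were even over the 3 libraries. The neighbouring transcripts *Klhl33* (4.81) and *A930018M24Rik* (4.93) rose alike, and *A930009A15Rik* (3.79), *Cyyr1* (3.73), *Wfikkn2* (3.67) and *Atp4a* (3.61), the catalytic subunit of the gastric proton pump, completed the 12 largest rises.

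**Figure D2:**
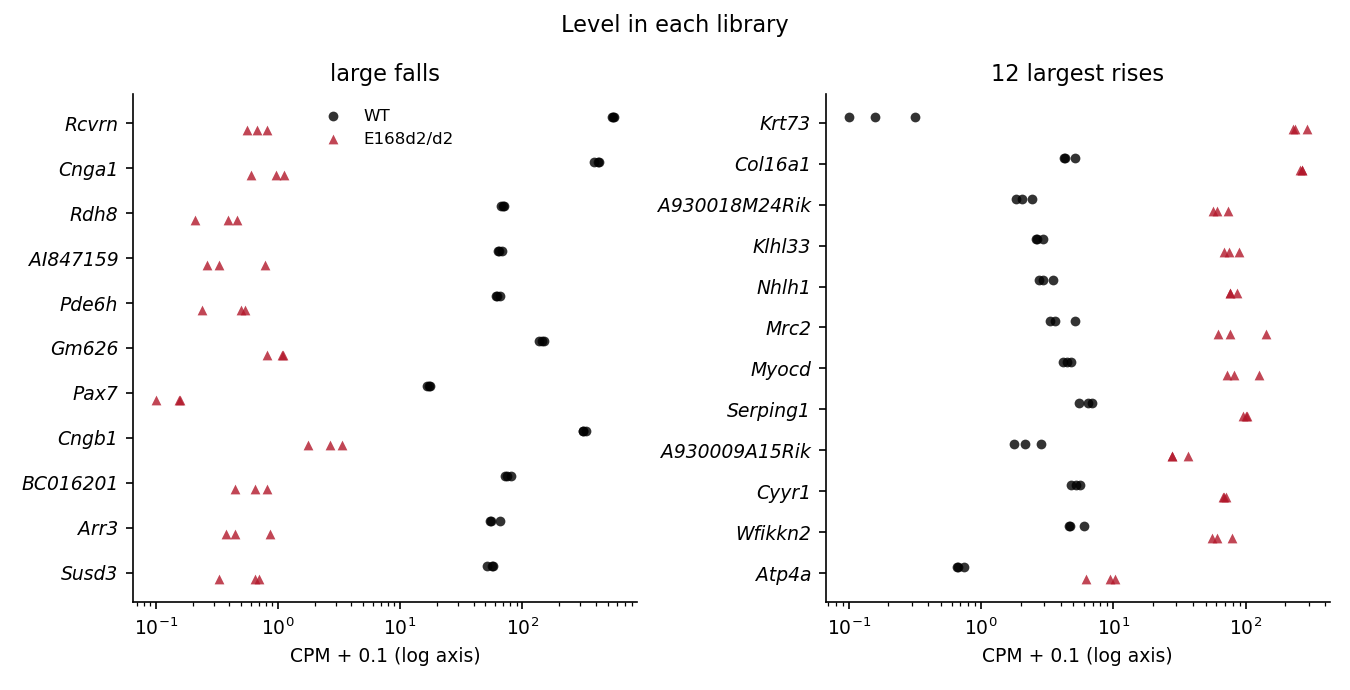
Level of each gene in each library, as CPM + 0.1 on a log axis, with WT libraries as black circles and *E168d2/d2* libraries as red triangles. Large falls are at left and the 12 largest rises at right. They were picked among called genes whose libraries do not overlap, so that the groups stand apart by choice.

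The sequence just upstream of a few of these genes is given here because CRX and OTX2 bind the letters TAATCC. Each line holds the 150 bases before the gene start of the GENCODE vM1 annotation on mm9, the build of the deposited files, 5′ to 3′ along the gene, and capitals mark TAATCC or its reverse complement GGATTA. The first 4 genes were called lower, *Samd7* was called higher, *Crx* rose by less than 2-fold, and *Krt73* had the largest rise. They were chosen after their values had been seen. The first 4 genes all hold the letters, whereas 16.3% of genes called lower held them in the window counted below. These 4 therefore do not stand for the falls as a whole.
*Rcvrn*, chr11:67508678-67508827, plus strand: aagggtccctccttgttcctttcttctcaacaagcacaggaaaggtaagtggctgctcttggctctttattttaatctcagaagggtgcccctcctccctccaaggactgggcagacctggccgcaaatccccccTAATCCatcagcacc
*Ano2*, chr6:125640287-125640436, plus strand: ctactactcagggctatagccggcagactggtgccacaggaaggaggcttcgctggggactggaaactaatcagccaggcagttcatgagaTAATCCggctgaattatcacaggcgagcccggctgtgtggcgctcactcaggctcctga
*Lrit1*, chr14:37867866-37868015, plus strand: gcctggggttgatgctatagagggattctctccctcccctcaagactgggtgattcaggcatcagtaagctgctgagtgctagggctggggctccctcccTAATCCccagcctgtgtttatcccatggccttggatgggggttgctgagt
*Rpgrip1*, chr14:52730428-52730577, plus strand: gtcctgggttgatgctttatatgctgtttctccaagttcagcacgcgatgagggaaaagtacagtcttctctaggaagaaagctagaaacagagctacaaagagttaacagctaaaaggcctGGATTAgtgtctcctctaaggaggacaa
*Samd7*, chr3:30645065-30645214, plus strand: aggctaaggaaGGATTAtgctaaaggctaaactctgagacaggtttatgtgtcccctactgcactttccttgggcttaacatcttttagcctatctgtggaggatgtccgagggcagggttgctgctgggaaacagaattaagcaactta
*Crx*, chr7:16465318-16465467, minus strand: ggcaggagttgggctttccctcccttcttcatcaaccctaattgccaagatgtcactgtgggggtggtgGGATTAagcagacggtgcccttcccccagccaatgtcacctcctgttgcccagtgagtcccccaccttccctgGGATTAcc
*Krt73*, chr15:101632775-101632924, minus strand: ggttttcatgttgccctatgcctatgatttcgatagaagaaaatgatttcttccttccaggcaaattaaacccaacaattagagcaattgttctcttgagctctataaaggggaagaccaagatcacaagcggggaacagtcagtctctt

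Over all genes, the letters were counted on either strand from 250 bases before to 50 bases after the gene start. TAATCC was held by 63 of the 387 genes called lower that had an annotated start (16.3%), by 23 of the 271 called higher (8.49%) and by 801 of all 11956 tested genes with a start (6.7%). The homeodomain letters TAATTA were in 4.13% of the genes called lower, 4.43% of those called higher and 2.75% of all genes. TGCTGA, the core that NRL and other MAF factors read, was in 22% of genes called lower, 18.1% of those called higher and 14.8% of all. AAGGTCA, read by ESRRB and ROR receptors, was in 4.91%, 2.58% and 2.99%, CAGCTG, an E-box, in 19.4%, 17.7% and 14.6%, and TATAAA in 9.82%, 9.96% and 7.05%, in the same order. No letters were excluded where motifs overlapped. These shares are descriptions of letters near annotated starts and were not tested.

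Phototransduction in rods fell along its whole length. The cascade runs from the visual pigment through the G protein transducin to the phosphodiesterase that hydrolyses cyclic GMP and so closes the cation channel of the outer segment. Of 21 rod phototransduction genes tested, 20 were called lower and none higher, against 3.24% and 2.28% of all genes. The median log2 ratio was -3.97, against 0.0974 for all genes. Without library B, and likewise without library C, 20 were called lower. The summed level of the list was 19622 to 19995 CPM in the WT libraries and 3711 to 3852 CPM in the mutant. Of the transducin subunits, *Gnat1* fell from 716, 666 and 626 CPM to 46.6, 42.6 and 39.5 CPM (log2 ratio -3.96), while *Gnb1* (-1.32) and *Gngt1* (-1.45) fell less. The phosphodiesterase subunits were as unequal. *Pde6a* fell from 559, 579 and 534 CPM to 5.66, 4.25 and 6.56 CPM (-6.66 ± 0.12), *Pde6g*, the inhibitory subunit, from 839, 848 and 852 CPM to 16.8, 17.1 and 18.2 CPM (-5.60 ± 0.047), and *Pde6b* from 1407, 1379 and 1382 CPM to 272, 277 and 284 CPM (-2.32 ± 0.043). Subunits of a single enzyme thus retained different shares of their WT level.

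The genes that end the light response or restore cyclic GMP followed. The guanylate cyclases *Gucy2e* (-5.06) and *Gucy2f* (-5.83), the cyclase activators *Guca1a* (-3.97) and *Guca1b* (-4.69), and the sodium-calcium-potassium exchanger *Slc24a1* (-5.16) were all called lower. *Grk1*, rhodopsin kinase, fell from 744, 708 and 724 CPM to 53.3, 49.7 and 54.7 CPM. The rod arrestin *Sag* kept a larger part, with 2434, 2375 and 2367 CPM in WT and 688, 807 and 784 CPM in the mutant. *Pdc*, phosducin, which binds transducin beta-gamma, was the single tested member not called, at 1571, 1663 and 1512 CPM in WT and 887, 800 and 776 CPM in the mutant (-0.95 ± 0.06, adjusted p = 1.51e-07). Under median scaling all 21 members were called lower, *Pdc* among them.

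Cone phototransduction was divided. Of 11 genes tested, 6 were called lower and 1 higher, against 3.24% and 2.28% of all genes. The counts were 6 and 2 without library B or without library C. The middle-wavelength opsin *Opn1mw* fell from 25.9, 25.0 and 21.1 CPM to 0.435, 0.517 and 0.364 CPM, and the short-wavelength opsin *Opn1sw* from 220, 209 and 206 CPM to 15.8, 18 and 19.3 CPM. The cone arrestin *Arr3* (-6.81), the phosphodiesterase subunits *Pde6c* (-3.37) and *Pde6h* (-7.30), and the channel subunit *Cnga3* (-5.38) fell as well. *Gngt2*, the cone transducin gamma subunit, went the other way, from 82.4, 82.6 and 85.6 CPM to 375, 409 and 390 CPM (2.23 ± 0.047, adjusted p = 1.10e-11). *Cngb3*, the other cone channel subunit, stood at 34.9, 40.1 and 35.1 CPM in WT and at 68.1, 73.7 and 65.1 CPM in the mutant (0.91), just short of 2-fold, and *Gnb3*, which cones share with bipolar cells, did not pass the test (0.05 ± 0.048, adjusted p = 0.37). The 2 channel subunits therefore moved in opposite directions.

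The outer segment itself and the matrix around it lost most of their transcripts. Of 20 genes tested, 15 were called lower and none higher, against 3.24% and 2.28% of all genes, and the median log2 ratio was -1.95. *Tulp1*, which carries proteins toward the outer segment, fell from 980, 1044 and 1107 CPM to 35.4, 47.7 and 51.5 CPM (-4.55 ± 0.11). *Fscn2* (-4.61), an actin-bundling protein, *Gm11744*, listed elsewhere as *Prcd* (-4.12), a small disc protein, and *Nxnl1* (-4.39), which encodes the cone survival factor of rods, were among the deepest falls. *Prph2*, the disc-rim tetraspanin, fell from 1635, 1631 and 1604 CPM to 268, 254 and 236 CPM, whereas its partner *Rom1* fell from 997, 1000 and 1029 CPM to 500, 472 and 459 CPM. *Rp1*, a microtubule protein of the axoneme, was at 1688, 1746 and 1502 CPM in WT and 1137, 1001 and 998 CPM in the mutant (-0.65), and *Cdhr1*, a cadherin of nascent discs, differed by -0.58, neither reaching 2-fold.

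Genes of the cilium that bears the outer segment were called in 1 direction. Of 53 genes tested, 8 were called lower, against 3.24% of all genes, and none higher, with a median of -0.27. Under median scaling 11 were called lower, without library B 10 and without library C 9. *Rpgrip1*, which anchors RPGR in the connecting cilium, fell from 1815, 1957 and 1922 CPM to 511, 618 and 567 CPM (-1.75), *Myo7a*, the motor mutated in Usher syndrome, by the same log2 ratio (-1.75), and *Tub*, a relative of *Tulp1*, by 1.73 on the log2 scale. *Bbs5* (-1.65) and *Bbs7* (-1.14), subunits of the BBSome, and *Arl13b* (-1.19), a ciliary GTPase, were also called, with *Nphp4* (-1.16) of the transition zone and *Crocc* (-1.02), the rootlet protein. Of the intraflagellar transport genes, *Ift88* (-0.05) and *Ift172* (-0.08) did not pass the test.

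Enzymes that handle retinoids moved in both directions. Of 20 genes tested, 5 were called lower and 3 higher, against 3.24% and 2.28% of all genes. Without library B the counts were 5 and 5, and without library C 4 and 3. *Rdh8*, the outer segment retinol dehydrogenase, fell from 67.3, 70.1 and 70.6 CPM to 0.109, 0.287 and 0.364 CPM, and *Rdh12*, the dehydrogenase of the inner segment, from 230, 227 and 230 CPM to 3.05, 2.93 and 2.55 CPM (-6.29 ± 0.076). *Dhrs3* (-1.86) and *Rbp3* (-1.12), the interphotoreceptor retinoid-binding protein, fell less. *Cyp26b1*, which degrades retinoic acid, rose from 2.32, 2.23 and 3.04 CPM to 24.6, 20.8 and 18.5 CPM (3.03 ± 0.15). *Rgr*, an opsin of pigment epithelium and Muller glia, was at 14.4, 6.76 and 7.65 CPM in WT and 41.1, 24.5 and 35.8 CPM in the mutant (1.86 ± 0.25, adjusted p = 9.04e-05). *Rgr* is also a member of the list of pigment epithelium markers given below.

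The photoreceptor synapse lost genes of the calcium signal and of contact with bipolar cells. Of 32 genes tested, 12 were called lower and none higher (median -0.70), against 3.24% and 2.28% of all genes. *Ano2*, a calcium-activated chloride channel of the terminal, fell from 186, 192 and 187 CPM to 3.92, 4.71 and 5.19 CPM, and *Cabp4*, the calcium-binding partner of the presynaptic channel, from 57.0, 56.5 and 60.1 CPM to 2.07, 1.61 and 1.73 CPM. The channel subunits *Cacna1f* (-1.10) and *Cacna2d4* (-1.30) fell less. The leucine-rich repeat proteins *Lrit1* (-3.77), *Lrit2* (-2.16) and *Elfn1* (-2.79), the latter binding the metabotropic receptor of bipolar cells, and *Egflam* (-1.51), pikachurin, fell too. *Slc17a7*, the vesicular glutamate transporter, was at 796, 748 and 779 CPM in WT and 267, 202 and 217 CPM in the mutant, and *Cplx4*, a complexin of ribbon synapses, fell by 2.31 on the log2 scale. *Stx3* (-1.14), a syntaxin of ribbon synapses, and *Ppef2* (-2.48), a phosphatase of photoreceptors, fell also. *Syp* (0.09), *Snap25* (0.12), *Vamp2* (-0.01) and *Bsn* (0.14) differed from WT by little on the log2 scale, and of these *Bsn* alone passed the adjusted p.

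Among 29 genes of ion channels and pumps, 4 were called lower and 2 higher, against 3.24% and 2.28% of all genes. *Kcnv2*, the modifier subunit of the photoreceptor potassium current, fell from 445, 443 and 421 CPM to 34.7, 35.7 and 33.6 CPM (-3.65 ± 0.047). Other falls included *Kcnj14* (-2.56) and *Kcne2* (-1.48). *Cacna1h*, a T-type calcium channel, rose from 341, 319 and 355 CPM to 895, 945 and 667 CPM, and *Aqp4*, the water channel of Muller glia, is given with the glial genes.

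**Figure D3:**
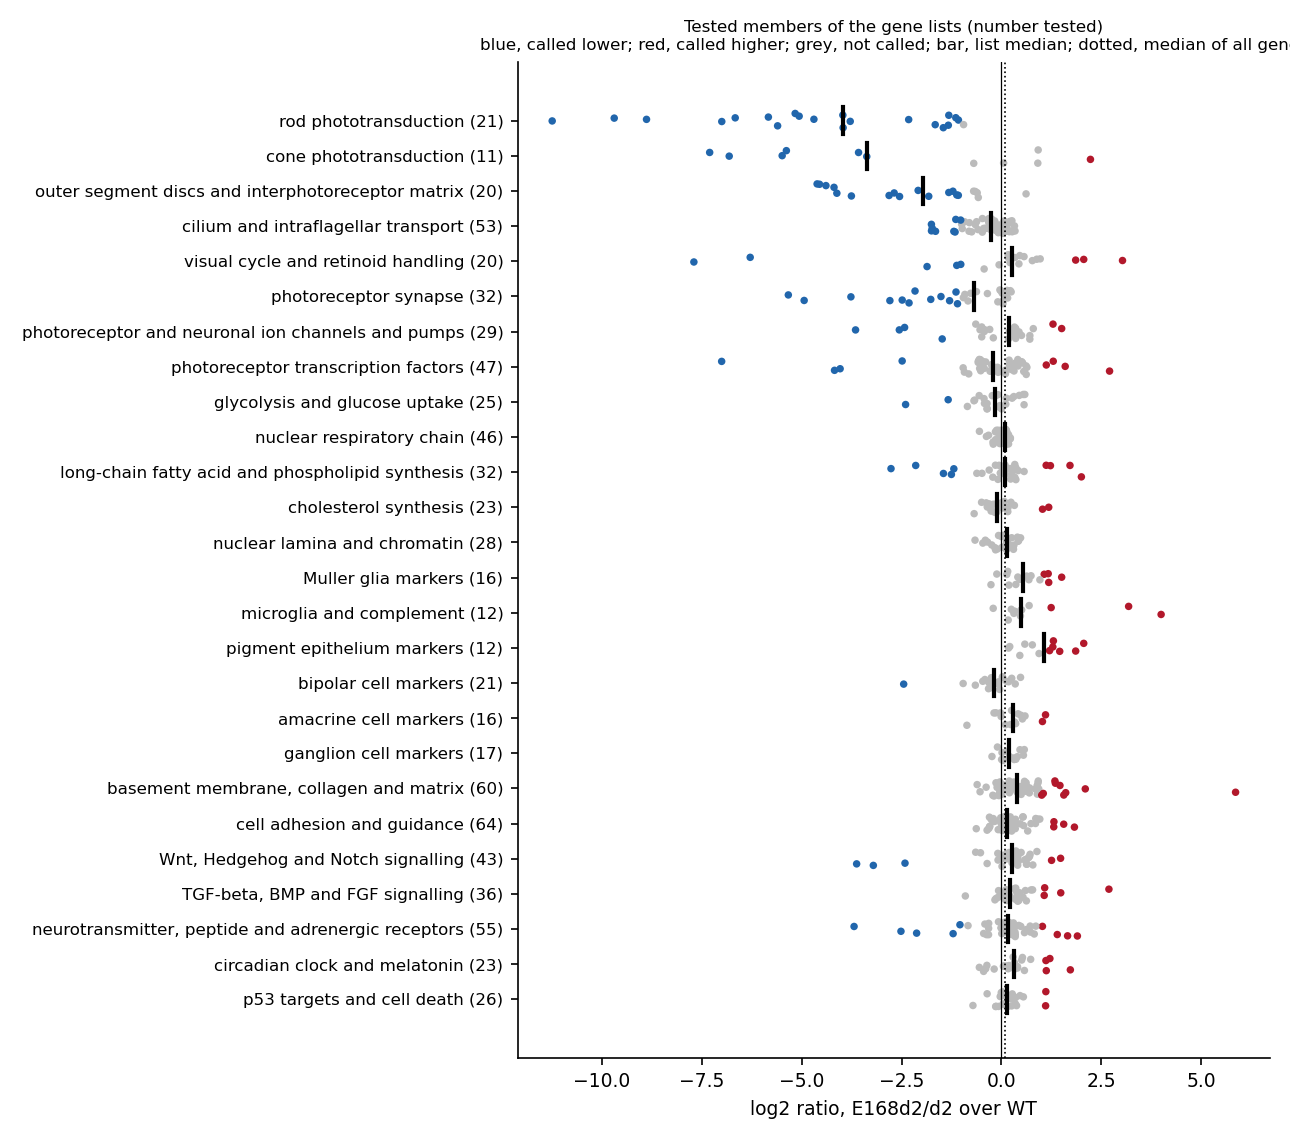
Log2 ratio of *E168d2/d2* over WT for each tested member of the gene lists named at left, with the number tested in brackets. Blue and red points were called lower and higher, grey points were not called, black bars are list medians and the dotted line is the median of all genes tested (0.0974). The medians of the 2 phototransduction lists lie at -3.97 and -3.37 and those of most other lists lie near the dotted line.

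In energy metabolism, 2 of 25 glycolysis and glucose uptake genes tested were called lower and none higher, against 3.24% and 2.28% of all genes. *Hk2*, the hexokinase of photoreceptors, fell from 41.8, 42.0 and 42.9 CPM to 7.29, 9.88 and 6.92 CPM (-2.40 ± 0.12), and *Pfkfb2*, which sets fructose 2,6-bisphosphate, from 310, 318 and 297 CPM to 121, 122 and 124 CPM (-1.33). *Hk1* (-0.85) and *Ldha* (-0.69) passed the adjusted p without reaching 2-fold. *Ckmt1*, the mitochondrial creatine kinase, fell from 153, 147 and 156 CPM to 26.4, 25.2 and 25.1 CPM (-2.57 ± 0.051), and *Acadvl*, the first enzyme of very long-chain fatty acid oxidation, from 79.1, 80.7 and 77.4 CPM to 24.7, 24.8 and 24.7 CPM. None of 46 nuclear genes of the respiratory chain and none of 12 mitochondrially encoded genes was called. With no limit on the fold, 7 of the nuclear genes were lower and 9 higher, against 16.9% and 35.8% of all genes. The counts were 13 and 0 under median scaling. The lowest adjusted p of the mitochondrial genes was 0.112 (*mt-Co3*, limma). They summed to 20771 to 22912 CPM in WT and to 29005, 21908 and 22015 CPM in mutant libraries A, B and C, with library A highest. Without library B 3 of the 12 passed the adjusted p upward, and without library C none did.

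In lipid synthesis 5 of 32 genes were called lower and 4 higher, against 3.24% and 2.28% of all genes. *Atp8a2*, a flippase of the outer segment, fell from 179, 184 and 186 CPM to 25.1, 27.6 and 28.0 CPM, and *Agpat3*, which makes the docosahexaenoyl phospholipids of photoreceptor membranes, from 814, 807 and 820 CPM to 312, 288 and 292 CPM. *Pnpla3* (-2.15), *Acsl6* (-1.25) and *Pitpnm3* (-1.19) fell. *Fabp7*, a fatty acid-binding protein of glia and progenitors, rose from 36.3, 42.4 and 40.2 CPM to 148, 171 and 158 CPM (2.00 ± 0.069), and *Agpat9* (1.71), *Faah* (1.23) and *Elovl7* (1.12) rose too. *Elovl4*, an elongase of very long-chain fatty acids in photoreceptors, was at -0.09 and did not pass the test. Of 23 cholesterol genes, none was called lower, and *Abca1* (1.03), the cholesterol exporter, was 1 of 2 called higher, 1 under median scaling. *Gpx4*, the peroxidase of phospholipid peroxides, fell from a mean of 360 ± 10.9 CPM to 170 ± 4.25 CPM (SD, n = 3) and was the only call among 19 antioxidant genes.

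Transcription factors of photoreceptors mostly changed by less than 2-fold. Of 47 tested, 4 were called lower and 4 higher, against 3.24% and 2.28% of all genes. The counts were the same without library B or without library C, and 6 and 4 under median scaling. With no limit on the fold change, 43 passed the adjusted p, 24 downward and 19 upward, against 16.9% and 35.8% of all genes. Under median scaling 24 were lower and 15 higher. *Nrl*, the rod-determining factor, was at 1240, 1270 and 1257 CPM in WT and 618, 681 and 683 CPM in the mutant (-0.93 ± 0.051, adjusted p = 3.98e-08), just short of 2-fold. Under median scaling its log2 ratio was -1.02 and it was called lower. *Nr2e3*, its target that represses cone genes in rods, was at 1502, 1582 and 1596 CPM in WT and 1162, 1133 and 1179 CPM in the mutant (-0.43). *Otx2* (0.34), *Neurod1* (0.56) and *Prdm1* (0.62), which act before or beside CRX, were above WT in all 3 libraries. *Rorb* (-0.55), *Mef2d* (-0.52), *Ncoa2* (-0.58) and *Thrb* (-0.53), the thyroid hormone receptor of M cones, were below WT.

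The factors called lower were *Pax7* and 3 others. *Esrrb*, an orphan nuclear receptor of rods, fell from 81.6, 79.1 and 75.2 CPM to 4.08, 4.42 and 5.74 CPM (-4.04 ± 0.11), *Ppara*, the fatty acid receptor, from 19.3, 18.7 and 16.6 CPM to 1.20, 0.976 and 0.637 CPM, and *Pias3*, the SUMO ligase that acts on NR2E3, from 466, 479 and 468 CPM to 73.8, 89.1 and 90.2 CPM. The gene bodies of *Pias3* and *Nudt17* (-1.59) overlap on opposite strands, so that reads may be shared. Those called higher were led by *Rxrg*, the retinoid X receptor of cones and ganglion cells, from 14, 11 and 13.8 CPM to 86.5, 82.9 and 83.4 CPM (2.70 ± 0.088). *Samd7*, a Polycomb-associated repressor of photoreceptors, rose from 403, 419 and 419 CPM to 1384, 1166 and 1208 CPM (1.59 ± 0.062), and *Six6* (1.29) and *Hlf* (1.12) rose with library A above the others. *Vsx1* (-0.96, and -1.05 under median scaling, where it was called) of bipolar cells, *Sall3* (-0.82), *Onecut1* (-0.58) and *Onecut2* (-0.53) of horizontal cells were below WT. *Rax* (0.20), *Neurod4* (0.31), *Neurod2* (0.24), *Lhx4* (0.38), *Isl2* (0.64), *Nr2f1* (0.53), *Nr2f2* (0.19), *Hes1* (0.41), *Hes6* (0.24), *Jun* (0.42) and *Bhlhe40* (0.51) were above WT, and *Mef2c* (-0.25), *Fiz1* (-0.23), *Sp4* (-0.29), *Trps1* (-0.21), *Ppargc1a* (-0.48), *Hes5* (-0.53), *Six3* (-0.20) and *Bhlhe41* (-0.39) below it, all by less than 2-fold. Of these, *Rax*, *Neurod2*, *Nr2f2* and *Hes6* did not pass the adjusted p under median scaling, and the libraries of the groups overlapped for *Hes6*. *Sebox* (-0.08), *Pax6* (0.10), *Lhx2* (0.10) and *Egr1* (-0.10) did not pass the test.

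Many genes enriched in rods fell, and genes enriched in cones were called in both directions. These 2 lists come from published *Nrl*-/- retinas, which have cone-like cells in place of rods. Of 237 rod-enriched genes tested, 107 were called lower (45.1%) and 7 higher (2.95%), against 3.24% and 2.28% of all genes. Their median log2 ratio was -0.88. With no limit on the fold 183 were lower and 20 higher, against 16.9% and 35.8% of all genes. Of 385 cone-enriched genes tested, 28 were called lower (7.27%) and 64 higher (16.6%), with a median of 0.34. Without library B the counts were 27 and 73, and without library C 30 and 68. The summed level of the cone-enriched genes was 24359 to 24773 CPM in WT and 31323 to 31858 CPM in the mutant. *Insm2*, a zinc finger factor on the cone-enriched list, rose from 5.45, 6.18 and 4.96 CPM to 44.2, 51.4 and 52.1 CPM (3.13), while the cone opsins on the same list fell. On the rod-enriched list, the 7 genes called higher included *Samd7*, *Faah*, *Col4a4* (1.35), *Col4a3* (1.34) and *Rab3il1* (1.18).

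**Figure D4:**
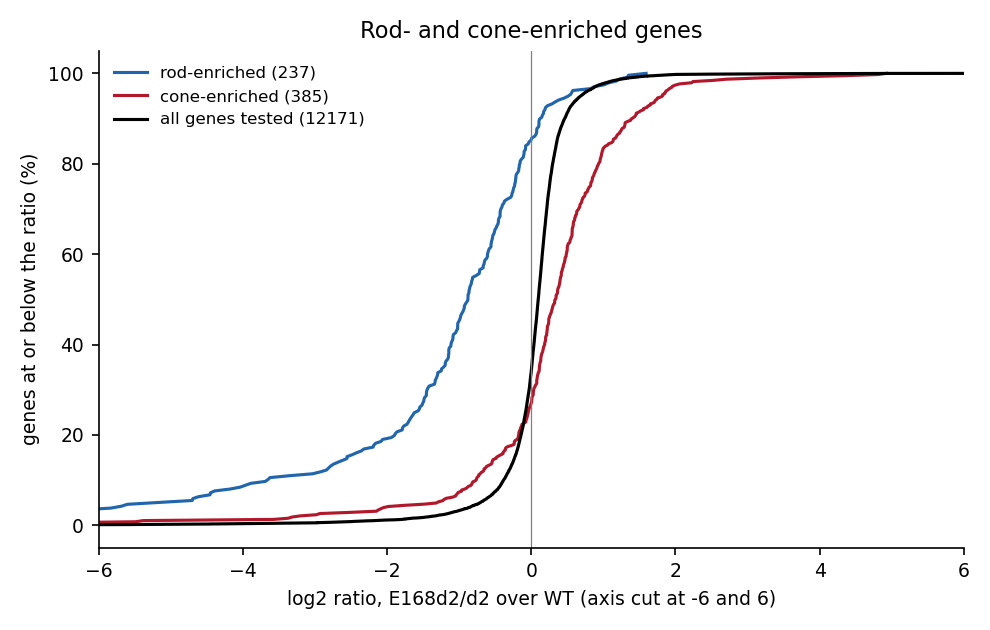
Percent of genes at or below each log2 ratio of *E168d2/d2* over WT, for 237 rod-enriched genes (blue), 385 cone-enriched genes (red) and all 12171 genes tested (black). The blue curve lies to the left of the black one, with its median at -0.88, and the red curve lies to the right over most of its length, with its median at 0.34.

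Of 60 extracellular matrix genes tested, none was called lower and 9 higher, against 3.24% and 2.28% of all genes, with a median log2 ratio of 0.38. Without library B 10 were called higher, without library C 9 and under median scaling 7. With no limit on the fold, 4 were lower and 40 higher, against 16.9% and 35.8% of all genes. The counts were 7 and 35 under median scaling. Besides *Col16a1*, the collagen IV chains *Col4a6* and *Col4a5* of basement membranes rose, the former from 8.09, 9.71 and 7.12 CPM to 40.8, 32.7 and 33.8 CPM (2.10 ± 0.12) and the latter from 25.1, 25.7 and 20.8 CPM to 68.3, 63.6 and 65.3 CPM (1.46). *Col4a3* (1.34) and *Col4a4* (1.35) rose with them, whereas the common chains *Col4a1* (0.06) and *Col4a2* (0.20) did not reach 2-fold. *Col8a1* (1.61) and *Col8a2* (1.56), the short-chain collagens, *Timp3* (1.05), a metalloprotease inhibitor of Bruch's membrane, and *Adamts5* (1.01), an aggrecanase, made up the rest. In *Col8a1* the WT libraries spread from 11.7 to 19.7 CPM and the mutant libraries from 33.2 to 57.5 CPM. Among keratins, *Krt18* fell from 18.1, 16.8 and 17.4 CPM to 6.64, 5.63 and 9.24 CPM.

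Of 64 genes of adhesion and axon guidance, 4 were called higher and none lower, against 2.28% and 3.24% of all genes. Without library B 5 were called higher, and without library C 4. *Epha8*, an ephrin receptor, rose from 67.1, 60.9 and 71.5 CPM to 187, 269 and 260 CPM (1.82 ± 0.12), and *Sema6d* (1.31), *Sema3c* (1.56) and *Cdh3* (1.31) rose too. In Wnt, Hedgehog and Notch signalling, 3 of 43 genes were called lower and 2 higher, against the same shares of all genes. These counts held without library B or without library C. The ligands *Dhh*, desert hedgehog, and *Jag1*, a Notch ligand, fell (*Dhh*, -3.62), with *Jag1* at 60.3, 56.6 and 53.8 CPM in WT and 9.74, 11.1 and 11 CPM in the mutant, and the receptor *Fzd10* fell by 3.21. *Hey1*, a Notch target, rose from 15.7, 16.3 and 14.9 CPM to 46.9, 43.9 and 40.9 CPM, and *Lgr5*, an R-spondin receptor, from 65.3, 66.8 and 65.6 CPM to 175, 143 and 155 CPM. Among 36 genes of TGF-beta, BMP and FGF signalling, 4 were called higher and none lower, and the ligands *Bmp6* (1.48) and *Bmp4* (1.08), the receptor *Fgfr2* (1.07) and the pseudoreceptor *Bambi*, from 7.52, 7.98 and 8.76 CPM to 59.3, 51.8 and 47.3 CPM (2.69 ± 0.095), were those. Under median scaling 2 of the 36 were called, without library B 5 and without library C 4.

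Receptors for transmitters and hormones moved singly. Of 55 tested, 5 were called lower and 4 higher, against 3.24% and 2.28% of all genes. Without library B the counts were 4 and 4, and without library C 5 and 4. *Drd4*, the dopamine receptor of photoreceptors, was at 31.9, 28.9 and 25.3 CPM in WT and 8.6, 3.79 and 3.64 CPM in the mutant (-2.51 ± 0.26). *Mc1r*, a melanocortin receptor (-3.69), *Cckbr*, a cholecystokinin receptor (-2.12) and *Hcrtr1*, an orexin receptor (-1.04), fell, while *Adrb1* rose from 12.5, 13 and 12 CPM to 57.1, 33.2 and 32.6 CPM (1.65). The neighbouring nicotinic subunits *Chrna3* (1.40) and *Chrnb4* (1.90) rose together, the latter from 33.0, 33.8 and 38.8 CPM to 136, 137 and 122 CPM. Of 23 clock genes, 4 were called higher and none lower. Of these, *Per3* (1.21), *Dbp* (1.11) and *Hlf* (1.12) rose, each with library A highest (222 CPM for *Per3*, 62.8 CPM for *Dbp* and 195 CPM for *Hlf*). The hour at which retinas were taken is not given in the sources used here.

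Markers of other cells were read for the whole lists, against the 3.24% of all genes called lower and 2.28% called higher. Of 16 Muller glia markers tested, 4 were called higher, and 3 under median scaling. Without library B, or without library C, 5 were called higher, and without library A 2. The markers summed to 2673 to 2825 CPM in WT and 3843 to 4982 CPM in the mutant. *Glul*, glutamine synthetase, was at 507, 455 and 455 CPM in WT and 1576, 840 and 902 CPM in the mutant, and *Aqp4* at 17.1, 19.3 and 13.7 CPM and 72.6, 36.2 and 40.1 CPM, both highest in library A. *Abca8a* (1.07) was another. *Gfap*, the intermediate filament that reactive Muller glia switch on, was at 16.7, 12.9 and 13.7 CPM in WT and 14, 16.8 and 14.8 CPM in the mutant (0.08 ± 0.11, adjusted p = 0.581). Of 16 genes on the reactivity list, *Spp1*, osteopontin (-2.58), and *Egf* (-1.02) were called lower and *Bdnf*, the neurotrophin (1.19), higher. Without library B 1 was lower and 1 higher, and without library C 1 and 2.

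Of 12 microglia and complement genes, 3 were called higher, among them *Serping1* and *Irf5*, an interferon-regulatory factor, from 3.64, 3.52 and 3.21 CPM to 34.3, 28.1 and 34.3 CPM (3.18 ± 0.11). The microglial genes *Cx3cr1* (0.25), *Csf1r* (0.47), *P2ry12* (0.50) and *C1qa* (0.33) rose by less than 2-fold, and *Cd68* (-0.21) did not pass the test. The list summed to 106 to 125 CPM in WT and to 276 CPM in each mutant library, within which *Serping1* had a mean of 6.20 CPM in WT and 99.9 CPM in the mutant and *Irf5* of 3.46 and 32.2 CPM. Of 12 pigment epithelium markers tested, 6 were called higher (median 1.07), among them the melanosome genes *Tyrp1* (1.30), *Pmel* (1.29) and *Dct* (1.20). Without library B 8 were called higher, and without library C 6. The markers summed to 691 to 790 CPM in WT and 949 to 1205 CPM in the mutant. *Tyrp1* was at 12.8, 8.41 and 9.46 CPM in WT and 29.3, 19.6 and 26.9 CPM in the mutant. Pigment epithelium adheres to the retina at dissection to a varying extent, and its part in the rises of *Rgr*, *Timp3*, *Col8a1* and *Col8a2* was not tested. Lens markers summed to 32.7 to 37.2 CPM in WT and 46.3 to 203 CPM in the mutant, and the single lens gene tested, *Cryab* (0.56), was not called. The 203 CPM were those of library A, and the remaining lens genes did not pass the filter.

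Markers of inner retinal neurons were read against the 3.24% of all genes called lower and 2.28% called higher. None of 17 ganglion cell markers and none of 8 horizontal cell markers was called, and the markers of lowest adjusted p were *Pou4f1* (0.57) and *Lhx1* (-0.91). With no limit on the fold, 1 ganglion marker was lower and 10 higher (median 0.20), against 16.9% and 35.8% of all genes. Of the horizontal markers, 5 were lower and 1 higher (median -0.20), and under median scaling 1 was called lower. Of 21 bipolar cell markers 1 was called lower, *Cabp2*, a calcium-binding protein, at 6.96, 6.76 and 6.71 CPM in WT and 0.979, 1.15 and 1.41 CPM in the mutant, with *Grm6* (-0.41), *Prkca* (-0.25) and *Trpm1* (0.18) short of 2-fold. With no limit on the fold, 11 of the 21 were lower and 3 higher (median -0.18), and under median scaling 2 were called lower. Of 16 amacrine markers 2 were called higher, 1 under median scaling, and *Gabrr2* (1.03) was among the 2. With no limit on the fold, 3 amacrine markers were lower and 10 higher (median 0.29). On the lists of 10 genes a cell type that the study drew up by specificity ratio, 8 of 10 rod genes and 5 of 8 tested cone genes were called lower. *Ndrg1* was the call among 9 genes tested on the horizontal list and fell from 706, 690 and 723 CPM to 208, 280 and 275 CPM. That list had a median of -0.81, and 6 of its genes were lower and 1 higher with no limit on the fold. Under median scaling 4 of its genes were called lower. *Adamts5* was the call on the bipolar list (median 0.01). No gene of 9 tested on the amacrine list was called (*Habp4*, 0.45), while 6 were higher and none lower with no limit on the fold. The 2 called higher of 9 tested on the ganglion list included *Rgr*, and 7 of that list were higher and none lower with no limit on the fold. Of 2 called higher on the cone list, *Fabp7* and *Gulo* (1.38), neither is a phototransduction gene.

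Of 26 p53 and cell death genes tested, 2 were called higher, *Cdkn1a*, the cyclin-dependent kinase inhibitor p21, from 14.7, 15.7 and 15.2 CPM to 30.9, 34.3 and 33.3 CPM (1.10), and *Perp* (1.11), against 2.28% of all genes, and none was called lower. *Bax* (0.15) stayed near the median of all genes. Of 23 genes of the unfolded protein and heat shock responses, *Hspb6*, a small heat shock protein, was the only call. Of 21 cell cycle genes, *Ccna2*, cyclin A2, fell from 23.1, 22.4 and 22.7 CPM to 8.6, 8.33 and 9.61 CPM and *Cdkn1a* rose. The *Ccna2* gene lies 992 bases from *Bbs7*, which also fell. None of 28 genes of the nuclear lamina and chromatin was called (*Cbx5*, 0.48, had the lowest adjusted p), none of 25 RNA-binding and splicing genes (*Msi1*, -0.38), none of 8 interferon and antigen presentation genes (*H2-D1*, 0.39), none of 4 astrocyte markers (*S100b*, 0.99) and none of 12 reference genes (*Ppia*, 0.54). A globin was the 1 call among 15 vascular and blood markers, and mutant library A stood highest for it. Without library B, or without library C, 4 of the list were called.

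Against the other mutants, the deep falls and several of the rises separated the *E168d2/d2* retina. In these comparisons the same 3 *E168d2/d2* libraries were used as against WT, so that the results are not independent. Against *R90W/W*, 154 of 12056 genes were lower (1.28%) and 108 higher (0.896%) in *E168d2/d2*. Without library B the counts were 156 and 119, and without library C 158 and 113. Against *E168d2/+*, 274 of 12061 genes were called, 1.39% of those tested lower and 106 (0.879%) higher. *Rcvrn* had a mean of 554 ± 9.72 CPM (SD, n = 3) in WT, 49.2 ± 14.1 in *E168d2/+*, 75.5 ± 6.26 in *R90W/W* and 0.579 ± 0.126 in *E168d2/d2*. *Cnga1* stood at 410 ± 17.0 CPM in WT, 299 ± 42.2 in *E168d2/+*, 241 ± 8.54 in *R90W/W* and 0.799 ± 0.272 in *E168d2/d2*, and its log2 ratio of *E168d2/d2* over *R90W/W* was -8.12 and over *E168d2/+* -8.42. *Cnga1* thus kept a large part of its WT level in both other mutants and was nearly gone in the homozygote. Of the rod phototransduction genes, 15 of 20 tested were lower than in *R90W/W* and 18 of 20 lower than in *E168d2/+*. *Gnat1* was an exception, at a log2 ratio of -0.46 to *R90W/W*.

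The rises fell into different patterns across genotypes. *Krt73* had a mean of 0.0914 CPM in WT, 0.981 in *E168d2/+*, 0.210 in *R90W/W* and 252 in *E168d2/d2*. *Serping1* (6.20 ± 0.711, 6.97 ± 0.361, 8.13 ± 0.472 and 99.9 ± 3.89 CPM in the same order), *Nhlh1* (2.96 ± 0.383, 5.86 ± 0.973, 5.79 ± 0.813 and 79.6 ± 6 CPM) and *Mrc2* (3.92 ± 0.964, 4.70 ± 1.16, 5.26 ± 1.14 and 93.6 ± 43.6 CPM) stood far higher in the homozygote than in any of the other 3 groups, and all were called higher in it against both mutants. *Col16a1* was graded, with 4.48 ± 0.514 CPM in WT, 57.1 ± 3.38 in *E168d2/+*, 100 ± 6.58 in *R90W/W* and 265 ± 5.47 in *E168d2/d2*. Others were shared with *R90W/W*. *Samd7* stood at 1629 ± 42.6 CPM in *R90W/W* and 1253 ± 116 in *E168d2/d2* (-0.38), *Fabp7* at 182 ± 2.72 and 159 ± 11.4 CPM (-0.20), and *Rxrg* at 69.3 ± 3.39 and 84.3 ± 1.92 CPM (0.28), none of them called between these mutants. *Atp4a* was shared with the heterozygote instead, at 6.94 ± 2.11 CPM in *E168d2/+* and 8.58 ± 2.19 in *E168d2/d2* against 1.06 ± 0.0716 in *R90W/W*. *Gngt2* was at 83.5 ± 1.78 CPM in WT, lower in *E168d2/+* at 43.4 ± 8.16, and higher in *R90W/W* at 166 ± 2.42 and in *E168d2/d2* at 391 ± 17.2.

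**Figure D5:**
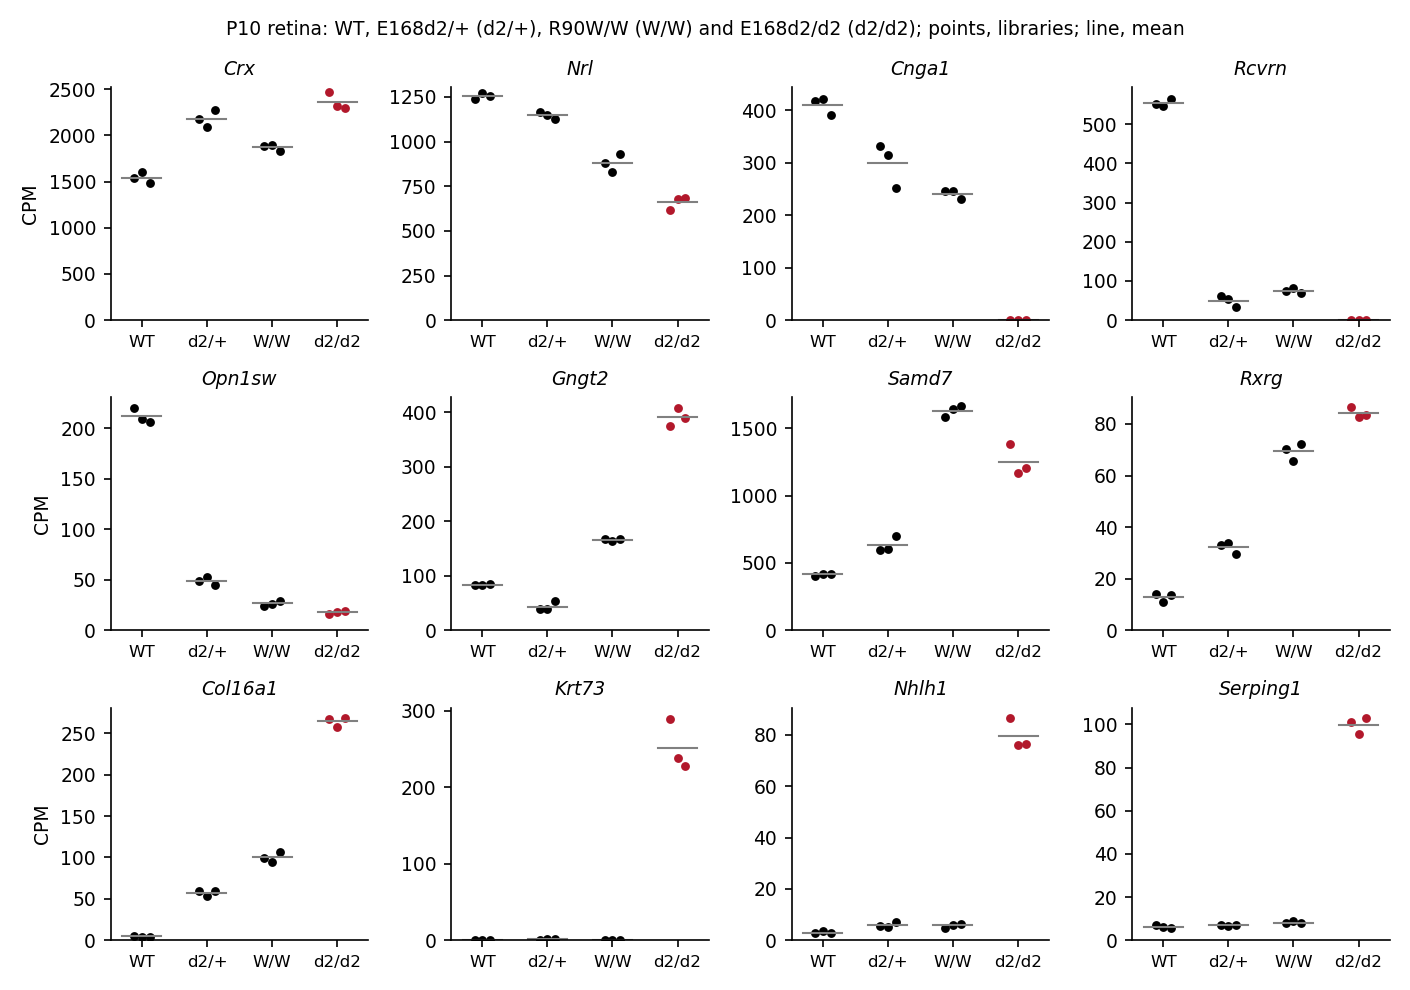
CPM of 12 genes in each P10 library of WT, *E168d2/+*, *R90W/W* and *E168d2/d2* (red), with grey lines for group means and a linear axis from 0 in each panel. *Krt73*, *Nhlh1* and *Serping1* stand high in the *E168d2/d2* libraries alone, *Col16a1* is graded over the groups, and *Samd7* and *Rxrg* stand high in both homozygotes.

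Some called genes lay next to each other. Of the 658 called genes with an annotated position, 63 pairs were at most 10000 bases apart or overlapped, and 54 of these pairs moved in the same direction and 9 in opposite directions. In 19 of the 54 pairs and 4 of the 9 the gene bodies overlapped, where reads may be shared. Pairs that do not overlap and fell together included *Cabp4* and *Gpr152* (-5.68), which start 175 bases apart head to head on chromosome 19. Others among them were *Rdh8* and *Col5a3* (-4.83), *Guca1a* and *Guca1b*, and *Pde6g* and *Tspan10* (-2.62). Pairs that rose together included *Col4a3* and *Col4a4*, which share a start region of 72 bases on chromosome 1, *Col4a5* and *Col4a6* on chromosome X, and *Chrna3* and *Chrnb4* on chromosome 9. Of the pairs that parted, *Lrit1* fell and *Rgr* rose 5866 bases away on chromosome 14, *Opn1sw* fell and *Ccdc136* (1.96) rose 7841 bases away on chromosome 6, and *Gnat1* fell while *Sema3f* (1.11) rose 1910 bases away on chromosome 9. No test was made of how often neighbours would move together.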

How the data were processed

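Whole retinas were profiled by RNA-seq, with 4 retinas pooled per library. The authors aligned reads with TopHat2 2.0.5 to mm9, counted them per gene with HTSeq 0.6.1p1 and deposited CPM values, made with edgeR 3.6.8, for 12573 genes. The 32 deposited columns of the authors' own comparisons (log fold change, log CPM, p-value and FDR) were not used, and 0 columns of sample values were left unmapped. Samples were grouped by title. Genes with at least 5 CPM in all 3 libraries of either group were tested on log2(CPM + 0.1) with limma 3.58.1 in R 4.3.3 (moderated test with a trend, Benjamini-Hochberg adjustment over all genes tested, two-sided), and called at an adjusted p of at most 0.05 and a change of at least 2-fold. Fold changes on this scale understate the change of low genes. The procedure was tested on simulated data. Each pool is a biological replicate per the labels. Gene lists, named genes and comparisons were chosen with earlier results of these data known. Genes named are *Crx*, the transcription factor list, the 12 largest changes in each direction and up to 5 called members of a list in each direction, or its member of lowest adjusted p. The 12 largest were taken among called genes whose libraries did not overlap between groups. Other genes were named after their values had been seen. Not every gene that meets this rule is reported here, and 20 symbols turned into dates were not named. Levels are compared between libraries and never between genes, as CPM is not per length. Gene starts and positions are from GENCODE vM1 on NCBIM37, the same assembly as mm9, matched by symbol for 98.2% of genes tested. Figures were drawn with matplotlib 3.10.9.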

Additional observations from a re-analysis of the deposited data

How the results depend on the processing

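With 16 alternatives (1 or 0.01 CPM added, a filter of 1 CPM or none, median log-ratio or quantile scaling, all P10 groups in a single fit, no trend, the replicate block, each of 6 libraries left out and, added after seeing the data, mutant libraries B and C left out together), the counts of called genes stayed within 1.5 times their reported values, with 1 exception. Genes higher than in *R90W/W* numbered 165 without libraries B and C, against 108, and the lone library is then assumed to vary like the others. Genes changed against WT ranged from 633 to 705 when each library was left out in turn, from 263 to 277 against *R90W/W* and from 274 to 307 against *E168d2/+*. The replicate block gave 671 genes against WT, as without it. The letters A, B and C share only a name, as same-letter deviations correlated at 0.134, -0.0547 and 0.0943. Among 187 named genes, none changed direction past the threshold, and 35 lost or gained their call under some alternative. Genes not called were followed here by the adjusted p alone, so that *Nrl*, past 2-fold under median scaling, is not among the 35. Adding 1 CPM ended the calls of *Adamts5*, *Bmp4*, *Egf*, *Elovl7*, *Fgfr2*, *Gabrr2*, *Hcrtr1*, *Hspb6*, *Perp* and others. Leaving out mutant library A ended those of *Abca1*, *Abca8a*, *Adamts5*, *Bmp4*, *Dbp*, *Gabrr2*, *Glul*, *Hlf*, *Hspb6* and others. Leaving out mutant library B ended those of *Egf* and *Hcrtr1*. Of the list counts recomputed, 75 moved by more than 1.5 times. A count test on recovered reads was not run. In the 6 libraries 97.7 to 100% of values lay within 0.1 of a whole number of reads, but few values lie near the step of 1 read, so that recovery was not established and read numbers given here are estimates. With 3 libraries a group, depth limits statements on genes under about 5 CPM, which is 69.5 to 110 reads.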

Other observations

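The genes below lie outside the lists and were chosen after their values had been seen. Of the histone genes, *Hist3h2a* was at 21.6, 26.4 and 20.1 CPM in WT and 83.5, 81.4 and 75.6 CPM in *E168d2/d2* (log2 ratio 1.82), and *Hist3h2ba* (1.46), *Hist1h2bc* (1.45), *Hist2h3c1* (1.43) and *Hist2h4* (1.20) were called higher too. *Neat1*, the architectural RNA of paraspeckles, rose from 22.3, 20.0 and 21.7 CPM to 94.9, 83.6 and 95.9 CPM. *Igfbp5*, a binding protein of insulin-like growth factors, rose from 101, 102 and 105 CPM to 467, 368 and 404 CPM, and *Slc27a2*, a transporter and activator of very long-chain fatty acids, from 5.14, 6.54 and 6.19 CPM to 58.7, 62.8 and 68.2 CPM. *Mbp*, myelin basic protein (1.61), *Chgb*, a granin of secretory granules (1.38), and *Lpl*, lipoprotein lipase (1.61), were called higher. The small leucine-rich proteoglycans *Optc* (1.47), *Fmod* (1.45) and *Ogn* (1.34) rose, with WT library A above the other WT libraries in each.

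Among falls outside the lists, *Mpp4*, a scaffold of the photoreceptor terminal, went from 402, 410 and 393 CPM to 10.4, 6.83 and 9.33 CPM (-5.51), *Aipl1*, the chaperone of the phosphodiesterase, from 454, 446 and 470 CPM to 74.2, 50.8 and 53.5 CPM (-2.96), and *Fam161a*, a protein of the connecting cilium, from 231, 241 and 224 CPM to 31.8, 28.1 and 29.0 CPM (-2.97). *Vtn*, vitronectin, went from 68.3, 69.0 and 66.1 CPM to 9.74, 9.53 and 8.92 CPM. *Crxos1*, whose annotated gene lies beside *Crx* on the other strand of chromosome 7, fell from 24.1, 27.5 and 24.5 CPM to 9.36, 12.1 and 12.2 CPM (-1.18), whereas *Crx* rose.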
